A study of Sus scrofa with 40 samples.

Results

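The 200 microarray probes described here are those whose values varied most between pigs of the same breed and housing system in Longissimus muscle (LM). They were selected on measured values. Gene probes well above background in the Cy3 channel on all 40 arrays were eligible, and the log2 ratio of the processed Cy3 to the processed Cy5 signal was centred on the array median. The mean of each of the 4 breed and housing groups was then subtracted, and the 200 probes with the largest median absolute deviation (MAD) over the 40 pigs were taken. They make up 2.09% of the 9591 eligible probes and 1.32% of the 15198 gene probes on the array. The spread within groups, and everything that is a portion of that spread, is therefore given as a description with no test. Differences between the groups were removed by the rule and could be tested.

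LM RNA came from 40 castrated male pigs of about 145 kg live weight, 20 of the Basque breed (B), a local fat breed, and 20 of the Large White breed (LW), a lean selected breed. In each breed 10 pigs were reared in conventional housing, indoors on slatted floor, and 10 in alternative housing, with bedding and access to an outdoor area. At this weight the B pigs were older than the LW pigs, and the littermates chosen for the experiment were split between the housing systems, but the labels do not say which pigs were littermates. Each pig's RNA was labelled with Cy3 and hybridised with a Cy5-labelled pool of equal amounts of RNA of all 40 pigs, in this dye order on every array, with the arrays spread over 7 slides. A value below is the log2 ratio of a pig to this pool after subtraction of the array median, so that a value lower by 1 is 1 doubling lower. A dye effect of a probe enters all pigs alike, so that 0 is not exactly the level of the pool and values are compared between pigs. An array of a B pig had 10447 to 13441 probes with a Cy3 signal well over background, and an array of an LW pig 11094 to 12589. The number of arrays limits the precision.

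Muscle RNA is a mixture from fibres of slow and fast type and from vessels, connective tissue, fat cells, nerves and blood, and animals can differ in that mixture. Some muscle genes are known to respond within hours to stretch, load or heat, while others differ between animals through inherited variants, which can alter the level of a transcript or the match of a probe to it. In a breed that is not inbred, both kinds of variation are known to occur among animals kept in the same way.

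Gene symbols were known for 22 of the 200 members, which represent 21 symbols. These symbols come only from the study's list of genes with a higher level in LW, which was chosen on these same samples. A member with a symbol is therefore a member already selected as higher in LW, and the direction of its breed difference is no independent evidence. The other members are given by the name of their probe.

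The MAD of the members had a median of 0.43 and reached 1.10 on the log2 scale, against a median of 0.13 over the eligible probes. The largest value belonged to ADAMTS8 (probe BX916975.1_1142), a secreted metalloprotease that can cleave proteoglycans of the extracellular matrix. BM658500.1_1854 followed with 1.03 and C94692.1.s_3339 with 0.90. CF369009.1_1760 had 0.88, CA778425.1_1165 had 0.86 and CJ010748.1_734 had 0.86. The first 10 were completed by BX666720.1_419 with 0.76, AW436009.1_248 with 0.74, BQ604386.1_863 with 0.72 and ANKRD1 (BM445302.1_1507) with 0.72. ANKRD1 encodes a protein of the titin-bound stretch-sensing complex of the sarcomere. At the limit of 200, the last members inside were CJ013132.1_486, CA779262.1_1496 and BQ598830.1_2979, each with 0.37, and the first probes outside were CASQ2 (CF178442.1_548), the calsequestrin of slow and cardiac muscle, BX914328.1_520 and CB478751.1_1673, also each with 0.37. The limit thus falls within a run of nearly equal values.

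Within the groups, ADAMTS8 covered several doublings. The log2 ratio of ADAMTS8 ran from -4.19 to -0.88 with a median of -2.70 in the 10 B conventional pigs, and from -3.96 to -0.26 with a median of -2.08 in the 10 B alternative pigs. It ran from -3.51 to 1.55 with a median of -1.22 in the 10 LW conventional pigs, and from -2.33 to 1.80 with a median of -0.07 in the 10 LW alternative pigs. The lowest values within the LW groups came from LW conventional 8 and LW alternative 13, the highest B value came from B alternative 14, and the ranges of all 4 groups overlapped. ANKRD1 also covered several doublings, from -3.08 to 0.56 (median -1.78) in B conventional pigs and from -4.24 to -0.32 (median -2.72) in B alternative pigs. Its log2 ratios in LW pigs were between -2.67 and 1.12 (median -1.82) in conventional and between -2.03 and 1.58 (median -0.77) in alternative housing. LW conventional 4, LW alternative 14 and B conventional 3 were the highest pigs of their groups for ANKRD1, and again all groups overlapped.

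The wide spread lay in the channel of the single pig and not in that of the pool. The median spread (MAD) of the log2 Cy3 signal was 0.45 over the members and 0.16 over the eligible probes, whereas that of the log2 Cy5 signal was 0.08 in both. In all 200 members the Cy3 spread exceeded the Cy5 spread, as it did in 91.2% of the eligible probes. The correlation of Cy3 with the ratio had a median of 0.94 over the members and 0.59 over the eligible probes (n = 40 pigs each). Members were somewhat dimmer, with a median processed Cy3 signal of 718 against 1011, and their probes had the same median share of G and C bases, 43.3%. These features are largely set by the rule, since a ratio with a wide spread needs a channel with a wide spread.

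Probes that shared a transcript showed how far the values depended on the probe. In 7 pairs both probes of a contig, an assembled transcript, were members, and the correlation of their values after subtraction of the group means ran from 0.62 to 0.99 (n = 40), with 6 pairs over 0.9. The pair at 0.62 was BM659262.1_829 and BM659262.1_889. A further 12 members had a second probe on their contig that was not a member; here the median correlation was 0.98, and 8 of the 12 exceeded 0.9. GADL1 (AJ604868.1_430), an enzyme related to glutamate decarboxylase, correlated at 0.99 with its second probe, and HCG11 (BQ598890.1_2149), a long non-coding RNA, at 0.99 with its own. Other pairs were less alike. CA778534.1_73 and its partner CA778534.1_143, which is listed as EEF1A1, the elongation factor of translation, correlated at 0.90, and CF367562.1_1230 and its partner also at 0.90. CB285870.1_670 and CB285870.1_189 correlated at 0.07, and the second of these was not eligible. The values of a member were thus not always shared by another probe of its contig.

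Members with nearly the same sequence gave nearly the same values. The HBA2 probes CF364593.1_620 and CJ016767.1_366, for the alpha chain of haemoglobin, differ by A21C and correlated at 0.99 over the 35 pigs in which neither spot was an outlier. BE032046.1_559 and BQ598830.1_2979 differ by A11C and correlated at 1.00 (0.997 before rounding, n = 40). BI184420.1_302 and CN165845.1_87 differ by T1G, A3G, G4C and T5A and correlated at 0.97. Positions are counted from 1 at the 5′ end of the probe as listed, each probe has 60 bases, the first 30 are shown, and capitals mark the bases that differ within a pair.
HBA2 CF364593.1_620: cccccttgcaccctgacctcAtgatcgttg
HBA2 CJ016767.1_366: cccccttgcaccctgacctcCtgatcgttg
BE032046.1_559: cattgtaaacAaactgtgttaactgcctgg
BQ598830.1_2979: cattgtaaacCaactgtgttaactgcctgg
BI184420.1_302: TtAGTgcaaattaattcaggaaggacgggg
CN165845.1_87: GtGCAgcaaattaattcaggaaggacgggg

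Most pairs of members did not vary together. Over all pairs of members the median correlation was 0.01, against 0.09 over pairs of eligible probes, and 277 pairs (1.39%) exceeded 0.6 where 2.70% of the eligible pairs did. In 114 pairs the correlation was under -0.6, with -0.79 as the lowest. When members were joined by average linkage at a mean correlation of 0.6, 6 groups of at least 5 probes held 40 members, 26 groups of 2 to 4 held 65, and 95 members joined no other. The 6 larger groups are called A to F below, and the value of a pig for a group is the mean over its probes.

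**Figure D1:**
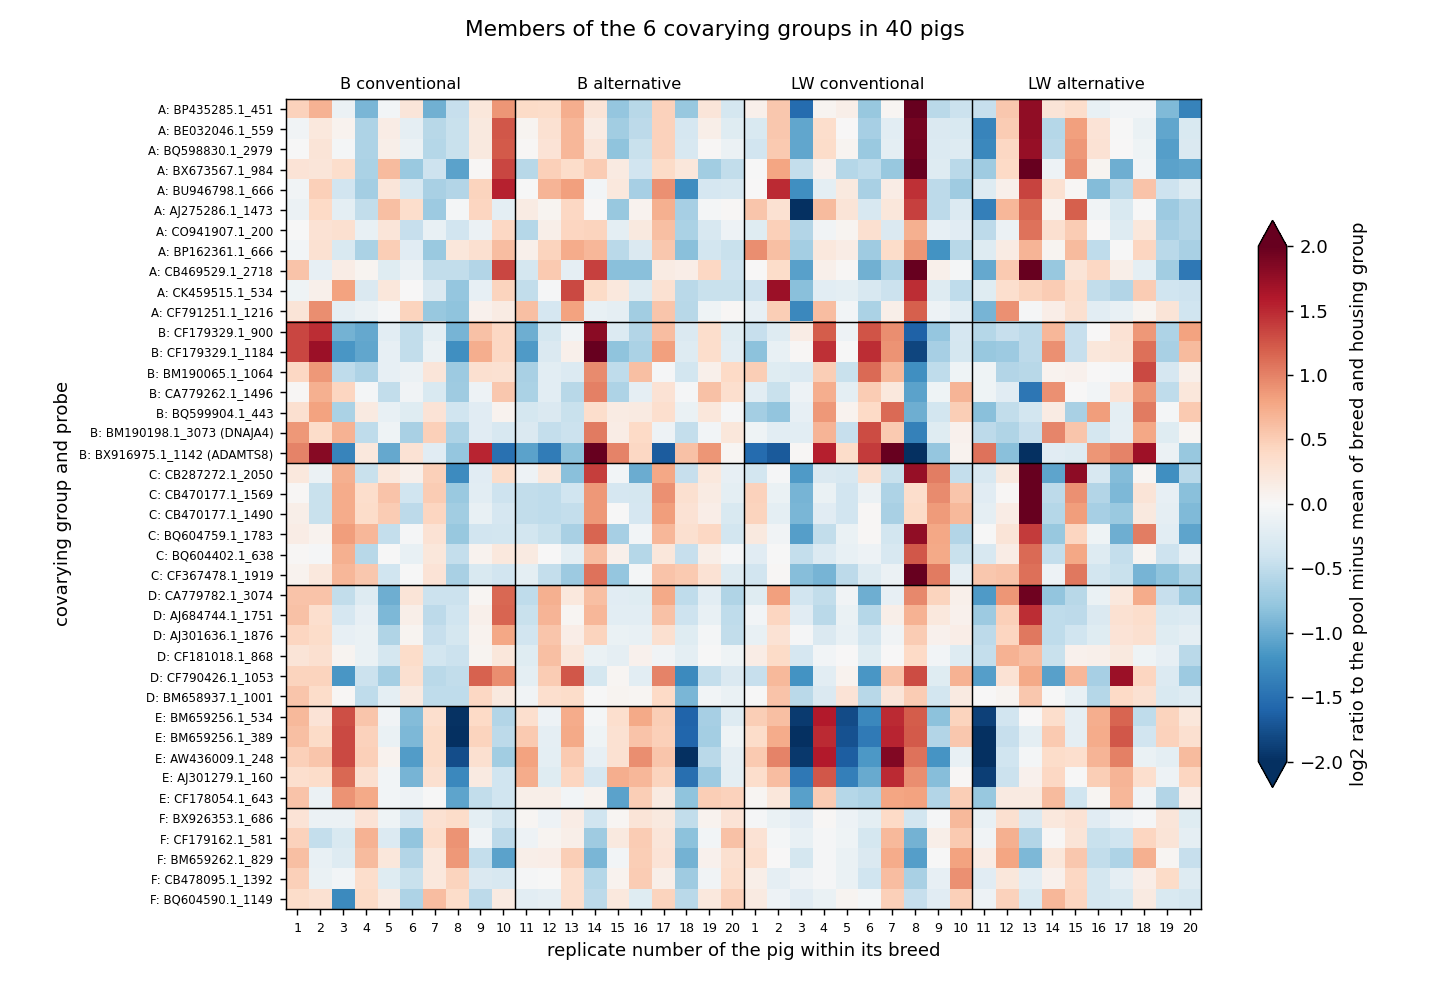
Log2 ratio to the pool minus the mean of the breed and housing group (colour scale, in log2 units) of the 40 members in the 6 covarying groups A to F (vertical axis, one line per probe) in the 40 pigs (horizontal axis, numbered within breed and ordered by group). LW conventional 8 and LW alternative 13 stand out in groups A and C, and LW alternative 11 and LW conventional 3 in group E.

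Group A held 11 probes on 11 contigs, none with a symbol, with a mean correlation of 0.68 (mean Spearman rho 0.64, n = 40). It included the near-identical pair BE032046.1_559 and BQ598830.1_2979, and BP435285.1_451 had the highest mean correlation with the others, 0.77. The values of BP435285.1_451 ran from -1.56 to 0.28 (median -0.51) in B conventional pigs and from -1.14 to 0.36 (median -0.12) in B alternative pigs. In LW they ran from -2.45 to 1.53 (median -0.86) in conventional and from -2.07 to 1.04 (median -0.78) in alternative housing. The high ends were LW conventional 8 and LW alternative 13, which lay 1.61 and 1.40 above their group means for group A. Without these 2 pigs, the farthest from the median, the mean correlation was 0.60. After removal of slide means it was 0.64, and it was 0.57 within B and 0.73 within LW. No probe of group A was called between breeds, with differences (B minus LW) from -0.24 to 0.64. The near-identical pair had a difference of -0.12 with all pigs and of 0.06 without LW conventional 8 and LW alternative 13.

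Group B held 7 probes on 6 contigs, among them ADAMTS8 and DNAJA4 (BM190198.1_3073), a co-chaperone of the heat shock protein HSP70. Its mean correlation was 0.67 (rho 0.63), 0.69 after removal of slide means, 0.59 within B, 0.74 within LW, and 0.60 without the 2 farthest pigs. DNAJA4 ran from -1.07 to 0.44 (median -0.57) in B conventional and from -1.35 to 0.16 (median -0.96) in B alternative pigs. Among LW pigs DNAJA4 ran from -1.47 to 1.19 (median -0.27) in conventional and from -0.78 to 0.80 (median -0.40) in alternative housing. LW conventional 8 and B alternative 14 were the farthest pigs for the group, at -1.47 and 1.32 from their group means. The 2 probes of contig CF179329.1 correlated at 0.99. ADAMTS8 was the only member of group B called between breeds. The difference of DNAJA4 was -0.48 (SE 0.19), with an adjusted p of 0.0722 in limma. Under 8 of 15 other settings DNAJA4 was called, among them the processed signals, with -0.58 (adjusted p 0.0356).

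Group C held 6 probes on 5 contigs with a mean correlation of 0.75 (rho 0.67), 0.72 after removal of slide means and 0.70 without the 2 farthest pigs, LW alternative 13 and LW conventional 8. These pigs were 1.67 and 1.28 above their group means. CB470177.1_1569, whose mean correlation with the others was 0.77, ran from -0.98 to 0.50 (median -0.34) in B conventional, from -1.09 to 0.33 (median -0.85) in B alternative, from -1.45 to 0.43 (median -0.64) in LW conventional and from -1.51 to 1.44 (median -0.81) in LW alternative pigs. All 4 groups overlapped, and LW alternative 13 was the highest of all pigs. The probes CF367478.1_1919 and BQ604759.1_1783 of group C were called between breeds, both higher in B.

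Group D held 6 probes on 6 contigs with a mean correlation of 0.74 (rho 0.75), 0.75 after removal of slide means, 0.74 within each breed and 0.72 without the 2 farthest pigs. These were LW alternative 13 (1.07 above its group mean) and B conventional 10 (0.74 above). All 6 differences between breeds were positive, from 0.21 to 0.96, and 3 were called. AJ684744.1_1751 ran from -0.65 to 1.41 (median 0.21) in B conventional and from -0.34 to 0.85 (median -0.01) in B alternative pigs. In LW it ran from -1.11 to 0.14 (median -0.53) in conventional and from -1.21 to 1.00 (median -0.76) in alternative housing. LW alternative 13 was the only pig of LW alternative housing near the highest B pigs. The difference of AJ684744.1_1751 was 0.71 (SE 0.18, adjusted p 0.00354), and 19 of 20 B pigs were above the LW median.

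Group E was the tightest, with 5 probes on 4 contigs, a mean correlation of 0.87 (rho 0.83), 0.89 after removal of slide means and 0.84 without the 2 farthest pigs. AW436009.1_248 ran from -3.36 to -0.26 (median -1.23) in B conventional and from -3.55 to -0.60 (median -1.46) in B alternative pigs. In LW it ran from -3.63 to 0.14 (median -1.51) in conventional and from -3.89 to -0.64 (median -1.50) in alternative housing. Every group held at least 1 very low pig: B conventional 8, B alternative 18, LW conventional 3 and LW alternative 11. For group E as a whole, LW alternative 11 lay at -1.77 and LW conventional 3 at -1.70 from the group mean. The breeds hardly differed, with 5 differences from -0.17 to 0.13 and none called.

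Group F held 5 probes on 5 contigs with a mean correlation of 0.80 (rho 0.83), 0.80 after removal of slide means and 0.79 without LW conventional 10 and LW conventional 8. These lay at 0.67 and -0.70 from their group mean. BX926353.1_686, its most central probe, ran from -0.27 to 0.46 (median 0.00) in B conventional, from -0.53 to 0.24 (median 0.01) in B alternative, from -0.33 to 0.68 (median -0.04) in LW conventional and from -0.34 to 0.26 (median -0.11) in LW alternative pigs. No probe of group F was called, with differences from -0.32 to 0.17.

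Pigs high for group A tended to be high for groups D and C. The correlation of the pig values was 0.75 between A and D and 0.59 between A and C, 0.36 between C and D, and it was between -0.24 and 0.37 for all other pairs of groups (n = 40). Markers of cell types could be set beside the groups for 3 lists, through probes with a symbol that were eligible. Every such symbol came from the study's list of genes higher in LW, chosen on these same samples. Lower levels of these markers in B are therefore set by that choice and are no result about breed. In the list of extracellular matrix and fibroblast genes, 5 of 16 genes were found (COL1A2, COL4A2, DCN, FMOD and SPARC) on 6 eligible probes. Their mean log2 ratio ran from -1.13 to 0.12 (median -0.33) in B conventional, from -0.72 to -0.11 (median -0.35) in B alternative, from -0.69 to 0.60 (median 0.30) in LW conventional and from -0.22 to 0.38 (median 0.17) in LW alternative pigs. After subtraction of group means, this mean correlated at -0.66 with group A (rho -0.52, and -0.50 without the 2 farthest pigs), at -0.52 with D (-0.40 without them), at -0.46 with C (-0.24) and at 0.49 with F (0.39). For slow fibre genes, 2 of 12 were found (CASQ2 and TPM3). Their mean correlated at 0.60 with group B (rho 0.62, and 0.59 without the 2 farthest pigs) and at -0.46 with C (-0.22 without the 2 farthest pigs). With the other groups it correlated between -0.37 and 0.38, and between -0.09 and 0.18 without the 2 farthest pigs. For fast fibre genes, 3 of 15 were found (ATP2A1, MYH1 and TPM1). Correlations of their mean with the groups were between -0.27 and 0.20, and between -0.07 and 0.23 without the 2 farthest pigs. The part of these cell types in the groups was not tested.

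The 26 smaller groups had mean correlations from 0.61 to 0.99, and in 2 of them the mean fell below 0.5 without the 2 farthest pigs. ANKRD1 formed a group with BQ604386.1_863, AW429619.1_872 and CF366520.1_605, at a mean correlation of 0.78 (rho 0.69, and 0.73 without B conventional 3 and LW conventional 4). IRF8 (CN158434.1_864), a transcription factor of myeloid and lymphoid cells, joined CB285638.1_950, CB287831.1_820 and BX926326.1_384 at 0.78 (rho 0.64, and 0.67 without LW alternative 14 and LW alternative 15). LW alternative 14 was 1.79 above its group mean for that group. GADL1 joined 3 probes at 0.72 (rho 0.64, and 0.60 without LW alternative 13 and LW conventional 8). The transcription factor SOX4 (BX926737.1_659) paired with CXCR4 (BQ597624.1_1648), a chemokine receptor of leukocytes, endothelium and muscle precursors, at 0.80 (rho 0.74, and 0.73 without 2 pigs). The nucleoside transporter SLC28A1 (CN153994.1_766) paired with BP149362.1_1383 at 0.66 (rho 0.64, and 0.57 without 2 pigs). CA778425.1_1165 and BX666720.1_419, both among the 10 most variable members, formed a pair at 0.93 (rho 0.93, and 0.92 without 2 pigs).

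The HBA2 probes and BP451506.1_395 formed the tightest group of 3, with a mean correlation of 0.96 (rho 0.96, and 0.95 without 2 pigs). HBA2 is known as a gene of red cell precursors, and the source of its RNA in these samples was not tested. HBA2 by CF364593.1_620 ran from -1.96 to 0.83 (median -0.17) in 8 B conventional, from -1.97 to -0.11 (median -1.21) in 10 B alternative, from -1.31 to 0.50 (median -0.01) in 10 LW conventional and from -1.54 to 0.71 (median -0.54) in 9 LW alternative pigs. B conventional 1 and B alternative 17 were the lowest and B conventional 5 the highest, and the groups overlapped. Neither HBA2 probe was called between breeds, with differences of -0.39 (SE 0.24, adjusted p 0.268) and -0.44 (SE 0.22, adjusted p 0.169), or between housing systems, with -0.46 (p 0.0741) and -0.34 (p 0.157) before adjustment. In whole muscle, fewer cells of a type and less RNA per cell cannot be told apart.

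Slides carried little more of the spread of the members than their degrees of freedom. The share of the sum of squares within groups that lay between slides had a median of 18.2% over the members, from 1.92% to 44.2%, and of 20.3% over the eligible probes. The 6 degrees of freedom between slides are 16.7% of the 36 within groups. The share exceeded 25% in 47 members (23.5%) and in 35.1% of the eligible probes, and exceeded 50% in 0 members and in 2.00% of the eligible probes. BM659658.1_901 had the largest share, 44.2%, followed by CB470177.1_1569 with 41.1% and BM658573.1_5173 with 40.6%. By covarying group, the median share was 31.3% in A and 32.3% in C, and 4.61% in B, 9.24% in D, 19.6% in E and 13.7% in F. Groups A and C thus had larger shares between slides than the others, although their correlations remained 0.64 and 0.72 after slide means were removed.

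**Figure D2:**
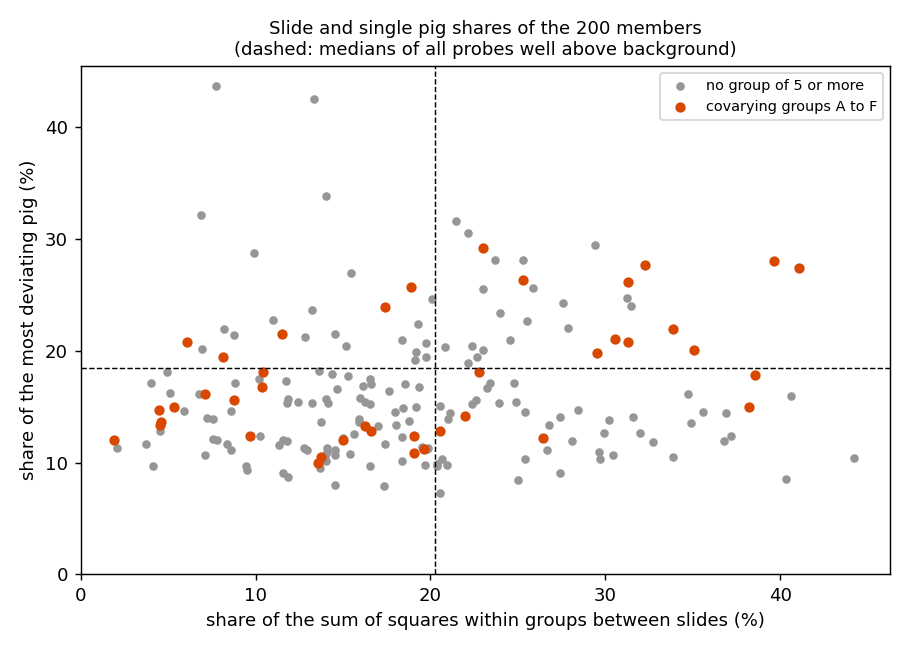
Share of the sum of squares within breed and housing groups that lay between slides (horizontal axis, in percent) and share of the single most deviating pig (vertical axis, in percent), with a dot per member, orange for covarying groups A to F. Dashed lines are the medians of the eligible probes, 20.3% and 18.5%, and no member exceeded 50% on either axis.

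Single pigs carried a modest share of most members. The most deviating pig held a median of 15.0% of the sum of squares within groups over the members, from 7.23% to 43.7%, against 18.5% over the eligible probes. The share exceeded 25% in 20 members (10.0%) and in 24.8% of the eligible probes. Part of this contrast came from the arrays of B alternative 15 and LW alternative 18, which deviated in many eligible probes: without them the medians were 15.5% over the members and 16.5% over the eligible probes. The median absolute deviation responds little to a single pig, so a low share is partly set by the rule. MYH3 (BM659685.1_856), the myosin heavy chain of embryonic and regenerating fibres, had the largest share, 43.7%. MYH3 ran from -0.99 to -0.12 (median -0.83) in B conventional and from -1.20 to -0.22 (median -0.82) in B alternative pigs. It ran from -0.99 to 2.93 (median -0.11) in LW conventional and from -1.03 to 0.39 (median -0.40) in LW alternative pigs. LW conventional 10 was 2.78 above its group mean and LW conventional 4 was the next highest pig, while the others overlapped between breeds. CB287831.1_820 of the IRF8 group followed with 42.5%, held by LW alternative 14, and BX672504.1_751 with 33.9%, held by LW alternative 13.

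Some pigs led many members. LW conventional 8 was the most deviating pig in 29 members (14.5%) and in 10.7% of the eligible probes, and LW alternative 13 in 26 members (13.0%) and in 5.01% of the eligible probes. B alternative 14 led 11 and LW conventional 2 led 9. Together these 4 pigs led 75 members (37.5%) and 18.6% of the eligible probes. The 4 pigs that led most eligible probes led 52.1% of those, mostly through B alternative 15 and LW alternative 18, which led 36.3% of the eligible probes and 5 members. At least 1 member was led by 38 of the 40 pigs. Without LW conventional 8 and LW alternative 13, an alternative chosen after seeing the data, 168 of the 200 members were chosen again and the median share of a single pig was 14.4%.

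Between breeds, 59 of the 200 members (29.5%) differed at an adjusted p under 0.05, against 21.2% of all 12221 tested probes and 23.4% of the eligible probes. The fit was a limma model of breed, housing, their interaction and slide, with Benjamini-Hochberg adjustment over all tested probes. Of the 59, 24 were higher in B, where 11.7% of all tested probes were called, and 35 were lower in B, where 9.51% were. The differences (B minus LW) ran from 0.35 to 1.28 with a median of 0.59 for the former, and from -0.30 to -1.95 with a median of -0.70 for the latter. All 17 called members with a symbol were lower in B, as the source of the symbols requires, and the 42 without a symbol were 24 higher and 18 lower. In 33 of the 59 the direction was the same within all 7 slides, in 18 within 6, in 7 within 5, and in 1 within 4. In 0 of the 59 did the 20 B pigs and the 20 LW pigs not overlap. The share over all tested probes is not given here, and the wide spread required by the rule makes overlap more likely. The median absolute difference was 0.29 over the members and 0.07 over all tested probes. A wide spread within groups, on which the members were chosen, by itself enlarges such estimates. This contrast is therefore largely set by the rule and is no result about breed. How much more frequent calls were among the members depended on the setting: with the processed signals 32.5% of the members and 31.1% of all tested probes were called, and over 15 other settings the ratio of the 2 shares ran from 1.04 to 1.73, against 1.39 here. Only 6 called members belonged to covarying groups A to F. With the processed signals, on which the members were chosen, the differences of the 59 were larger, by a median of 1.41 times (1.04 to 2.54) and by over 1.5 times in 24.

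The largest difference with normexp values was that of ADAMTS8, whose values are given above, while with the processed signals HCG11 (-2.46) exceeded ADAMTS8 (-2.15). The mean was -2.50 ± 1.17 (SD, n = 20) in B and -0.58 ± 1.56 (n = 20) in LW, and the difference was -1.95 (SE 0.40, adjusted p 5.27e-04). It was negative within all 7 slides, from -2.97 to -0.68, and 19 of 20 B pigs were below the LW median. HCG11 ran from -2.28 to 0.55 (median -1.62) in B conventional and from -2.11 to -0.16 (median -1.46) in B alternative pigs. In LW it ran from 0.12 to 1.60 (median 0.35) in conventional and from -2.09 to 1.43 (median 0.37) in alternative housing. B conventional 2 was high and LW alternative 19 low, and apart from these pigs the breeds did not overlap. The difference of HCG11 was -1.86 (SE 0.23, adjusted p 3.90e-07), and its second probe gave -1.68 (SE 0.21, adjusted p 4.48e-07).

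LSM3 (CA779643.1_571), a protein of the complex that binds U6 small nuclear RNA and decaying mRNA, ran from -1.30 to 0.07 (median -1.19) in B conventional and from -1.53 to 0.16 (median -1.32) in B alternative pigs. In LW it ran from -1.23 to 1.05 (median 0.83) in conventional and from -1.12 to 1.16 (median 0.84) in alternative housing. Every B pig was below the LW median, but a few LW pigs, LW conventional 1 and LW alternative 11 among them, were as low as many B pigs. The difference was -1.54 (SE 0.20, adjusted p 7.49e-07). CA778534.1_73 differed by -1.60 (SE 0.20, adjusted p 4.77e-07) and its partner on the contig, EEF1A1, by -0.82 (SE 0.13, adjusted p 2.90e-05), and for both probes 20 of the 20 B pigs had values under the LW median. BQ598889.1_523 differed by -1.21 (SE 0.45, adjusted p 0.0488), although only 10 of 20 B pigs were below the LW median. The difference of this probe was negative within 5 of 7 slides, from -4.57 to 0.04. Its adjusted p exceeded 0.05 with no background correction (difference -1.16), with no filter on dim probes (-1.21) and without LW conventional 8 and LW alternative 13 (-1.26).

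ANKRD1 had a mean of -2.18 ± 1.28 in B and -1.05 ± 1.26 in LW (n = 20 pigs per breed). Its difference was -1.11 (SE 0.36, adjusted p 0.0233) and was negative within all 7 slides, and 14 of the 20 B pigs had values under the LW median. MYH3 differed by -0.68 (SE 0.22, adjusted p 0.0275), and 17 of the 20 B pigs lay under the LW median. Without LW conventional 10 the difference of MYH3 was -0.50 (SE 0.16, adjusted p 0.0248), and the LW mean was -0.27 ± 0.64 instead of -0.11 ± 0.95. With replicate number as a block, MYH3 was not called, at -0.52 (adjusted p 0.126). BAG3 (BQ603020.1_2417), a co-chaperone that clears damaged proteins of the Z-disc, ran from -1.68 to 0.18 (median -1.11) in B conventional and from -1.84 to 0.54 (median -0.78) in B alternative pigs. LW pigs had BAG3 values from -0.95 to 0.34 (median 0.00) in conventional and from -0.63 to 0.37 (median -0.09) in alternative housing. Many B pigs were below every LW pig, and others of both housing systems lay within the LW range. The difference of BAG3 was -0.76 (SE 0.18, adjusted p 0.00194), and 17 of the 20 B pigs had values under the LW median. AHNAK (CF794451.1_1499), a large scaffold protein below the membrane, differed by -0.60 (SE 0.20, adjusted p 0.0268). The AHNAK difference was negative within 5 of 7 slides, from -2.19 to 0.55.

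IRF8 ran from -1.05 to -0.07 (median -0.47) in B conventional and from -1.16 to -0.10 (median -0.55) in B alternative pigs. IRF8 in LW pigs ran from -0.27 to 0.71 (median 0.22) in conventional and from -0.83 to 1.50 (median 0.05) in alternative housing. All 20 B pigs were below the LW median, and the widest spread was that of the LW alternative pigs. The difference of IRF8 was -0.76 (SE 0.16, adjusted p 5.10e-04), and -1.16 with the processed signals. The coreceptor of transforming growth factor beta, TGFBR3 (BP144647.1_3842), differed by -0.58 (adjusted p 0.00253). SOX4 differed by -0.45 (adjusted p 0.00237), and by -0.84 with the processed signals. CXCR4 was not called, at -0.31 (SE 0.12, adjusted p 0.0741), or with the processed signals, at -0.60 (adjusted p 0.0523), but was called under 4 of 15 other settings. The histone gene HIST1H2BM (BM190144.1_1247) differed by -0.55 (adjusted p 0.0258).

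Of the members with roles in metabolism and transport, EBPL (CB469502.1_750), related to a sterol isomerase, had the smallest adjusted p, 7.80e-08. It ran from -0.96 to -0.12 (median -0.78) in B conventional, from -1.20 to -0.15 (median -0.60) in B alternative, from -0.49 to 0.68 (median 0.28) in LW conventional and from -0.09 to 0.99 (median 0.48) in LW alternative pigs. The difference of EBPL was -0.98 (SE 0.11), with every B pig under the LW median and a small overlap of the breeds. SLC28A1 differed by -0.86 (SE 0.16, adjusted p 1.33e-04) and GADL1 by -0.87 (SE 0.20, adjusted p 0.00171). CTH (BQ600852.1_1461), which makes cysteine from cystathionine, was not called, at -0.21 (SE 0.08, adjusted p 0.0520), but it was called under 9 of 15 other settings, among them the processed signals, with -0.53 (adjusted p 0.0206). RPS19 (AW435811.1_507), a protein of the small ribosomal subunit, differed by -0.48 (SE 0.12, adjusted p 0.00342), and by -0.87 with the processed signals.

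**Figure D3:**
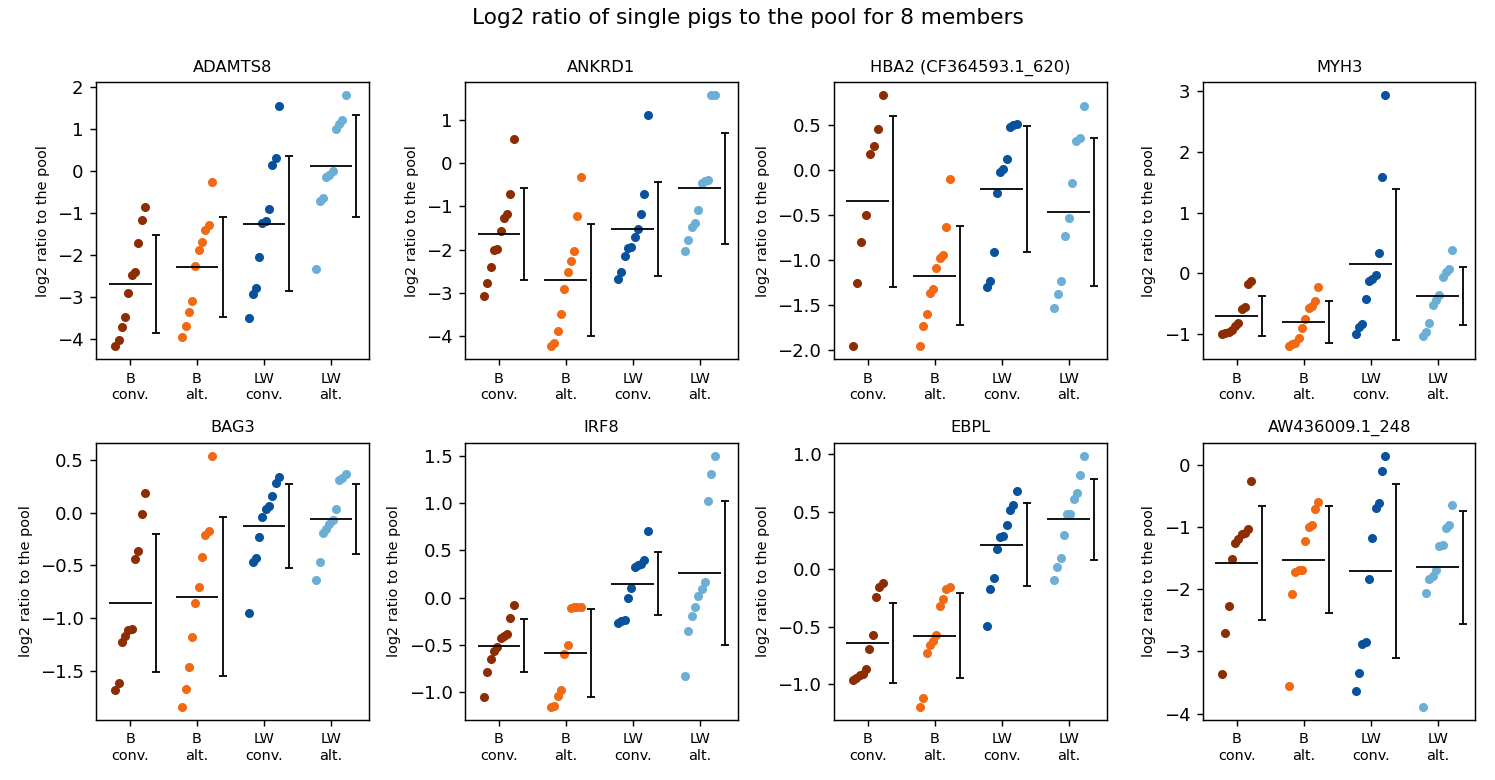
Log2 ratio to the pool (vertical axis) of 8 members in the pigs of the 4 breed and housing groups (horizontal axis; dots are pigs, up to 10 per group, lines are means and bars SD). B pigs lie lower for ADAMTS8, BAG3, IRF8 and EBPL with overlap, LW conventional 10 is highest for MYH3, and the groups lie at like levels for AW436009.1_248.

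The members higher in B had no symbol. CA779460.1_1088 showed the largest difference, with -1.37 to 0.29 (median -0.13) in B conventional, -1.43 to 0.88 (median -0.48) in B alternative, -2.94 to 0.05 (median -2.15) in LW conventional and -2.74 to 0.77 (median -1.40) in LW alternative pigs. All 20 B pigs were above the LW median, while several LW pigs reached the B range. The difference was 1.28 (SE 0.27, adjusted p 6.18e-04), positive in 6 of 7 slides. CF367478.1_1919 of group C differed by 1.03 (SE 0.21, adjusted p 5.77e-04), CA779782.1_3074 of group D by 0.96 (SE 0.22, adjusted p 0.00169), BQ599155.1_1492 by 0.94 (SE 0.15, adjusted p 3.50e-05) and BW959282.1_605 by 0.89 (SE 0.13, adjusted p 6.04e-06). The processed signals gave 1.44 for BQ599155.1_1492 and 1.36 for BW959282.1_605. In each of these 4 members all 20 B pigs were above the LW median. BX672504.1_751 differed by 0.49 (SE 0.16, adjusted p 0.0280), and by 0.59 (SE 0.13, adjusted p 9.98e-04) without LW alternative 13 and 0.82 with the processed signals. CB287831.1_820 was lower in B by -0.43 (SE 0.15, adjusted p 0.0346), and by -0.32 (SE 0.11, adjusted p 0.0368) without LW alternative 14, and it was not called with replicate number as a block, at -0.42 (adjusted p 0.0567), while the processed signals gave -0.87.

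Some members fell into separate levels within a breed, as a description. Gaussian mixtures of equal variance gave more than 1 level, where the Bayesian information criterion (BIC) improved by 10 or more and no level had fewer than 3 pigs, in 14 members (7.00%), against 0.626% of the 9591 eligible probes. Of the 14, 9 did so in B and 7 in LW, 2 of them in both. A wide spread within groups is what separate levels produce, so that this excess is partly set by the rule. The levels of BQ598889.1_523 lay farthest apart: in B, 7 pigs lay between -4.95 and -3.63 and 13 between -1.07 and 0.45, while the LW pigs lay between -0.98 and 0.46. The low B pigs came from both housing systems, and the remaining B pigs overlapped the LW pigs. CA778425.1_1165 split the B pigs into 13 between -1.74 and -1.32 and 7 between 0.04 and 0.96. C94692.1.s_3339 gave 3 levels in B, of 7, 10 and 3 pigs with means of -2.99, -0.36 and 0.78. BM658500.1_1854 gave 5 B pigs with a mean of -3.86 and 15 with a mean of -0.57.

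CF179208.1_1029 split the other breed. In LW, 8 pigs lay between -0.86 and -0.52 and 12 between 0.52 and 1.18, whereas the B pigs lay between -1.01 and -0.08, most of them at the lower LW level. Its breed difference was -1.03 (SE 0.17, adjusted p 5.51e-05), or -1.61 with the processed signals, and every B pig lay under the LW median. BQ599155.1_1492 in LW gave levels of 3, 7 and 10 pigs with means of -1.75, -1.33 and -0.33, the highest of them nearest the B pigs. BW959282.1_605 in LW gave 11 pigs with a mean of -1.34 and 9 with a mean of -0.27, and the B pigs had a mean of -0.02 ± 0.14 (n = 20). CA778534.1_73 in B gave 11 pigs with a mean of -2.19 and 9 with a mean of -0.64. LSM3 had levels in both breeds: 15 B pigs at a mean of -1.25 and 5 at -0.09, and 3 LW pigs at -1.02, 4 at 0.31 and 13 at 0.95. CF361812.1_646 also had levels in both breeds, near -0.99 in 14 B and 10 LW pigs, and at 0.45 in 6 B and 0.29 in 10 LW pigs. This probe was not called between breeds, at -0.23 (SE 0.22, adjusted p 0.522). In the IRF8 group, CB287831.1_820 and BX926326.1_384 each set 3 LW pigs apart from 17, at means of 1.59 against -0.08 and of 1.40 against -0.63. The remaining members with levels were BM659658.1_901 and CB285269.1_211, both in B.

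**Figure D4:**
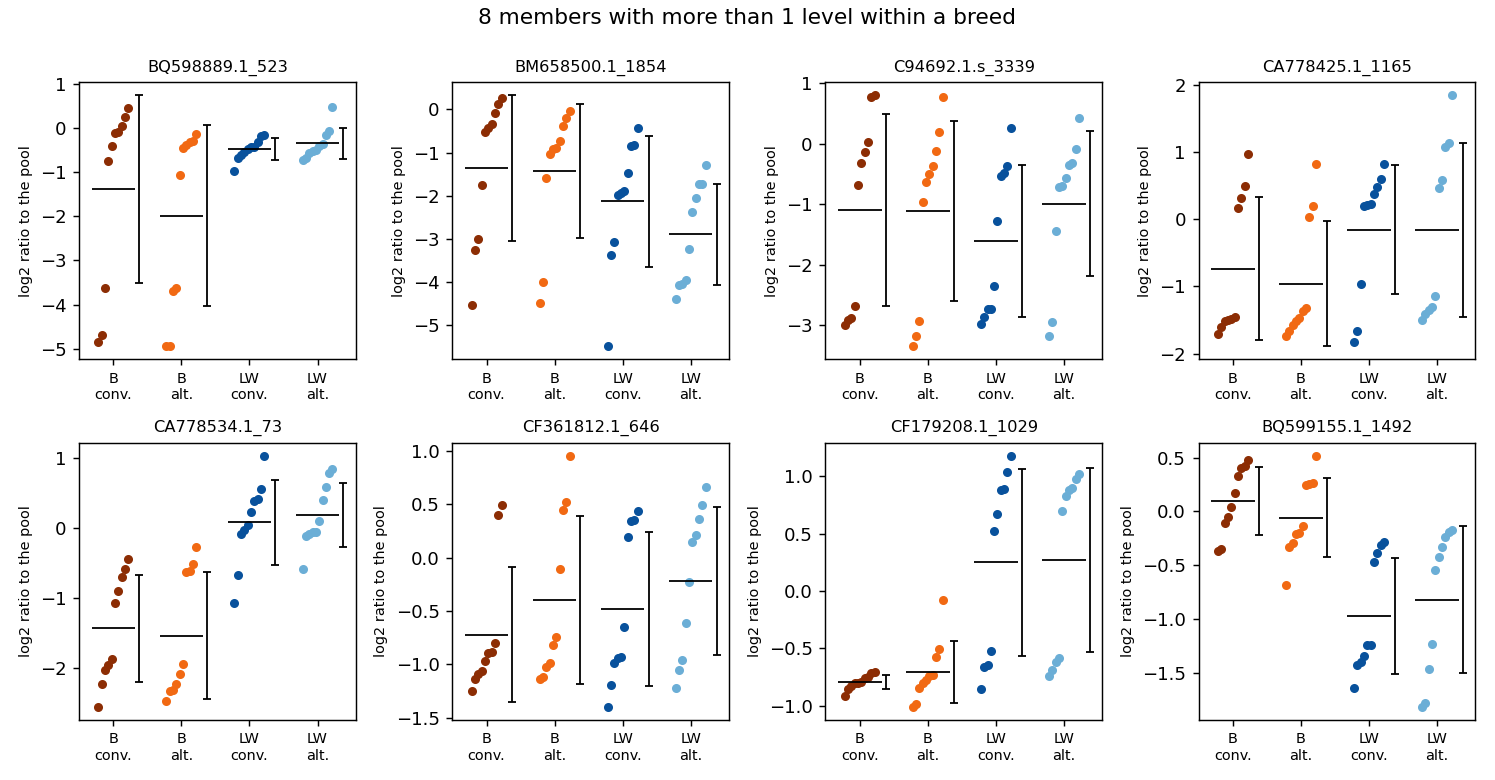
Log2 ratio to the pool (vertical axis) of 8 members with more than 1 level within a breed, in the pigs of the 4 breed and housing groups (horizontal axis; dots are the 10 pigs of a group, lines are means and bars SD). For BQ598889.1_523 the 7 low B pigs are split between the housing systems, and for CF179208.1_1029 the LW pigs form an upper and a lower level while most B pigs lie at the lower one.

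The first 30 bases of some of the probes with levels are given so that their transcripts can be looked up, since no symbol was known for them.
BQ598889.1_523: atatgtgaccccaaaaattttaccattgaa
CA778425.1_1165: cccctctgacatcggaatgacaagtgggat
C94692.1.s_3339: gcgctgtgggatggttatgtgaatatttag
BM658500.1_1854: gtgaggtggtctgaatgttctgacattaac
CF179208.1_1029: gtggcagtgataaacactctacatcacaaa
BQ599155.1_1492: gataaccactgagattggatgcctgagcta
BW959282.1_605: aacatcaagagaggaaggcctatgacccag

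Within conventional housing, 22 members (11.0%) were called between breeds against 8.25% of all tested probes, and within alternative housing 28 (14.0%) against 7.58%. With the processed signals the shares were 13.0% against 13.1% in conventional and 18.5% against 15.6% in alternative housing, so that no excess among the members remained in conventional housing. In 14 members the difference was called in both, a count without a comparison, since the share of all tested probes called in both is not given here. ADAMTS8 differed by -1.34 (SE 0.57, adjusted p 0.143) in conventional and by -2.56 (SE 0.56, adjusted p 0.00367) in alternative housing, and the difference of these differences was -1.22 (SE 0.80, p 0.136, adjusted p 0.972). ANKRD1 differed by -0.11 (SE 0.51, adjusted p 0.924) in conventional and by -2.11 (SE 0.51, adjusted p 0.00751) in alternative housing. Its interaction was -2.00 (SE 0.72), with a p of 0.00889 before and 0.972 after adjustment, so that a difference between the housing systems was not shown for it.

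Between housing systems, limma called 0 of the 200 members, as it called 0.0% of all tested probes. The smallest adjusted p of a member was 1.00, and 7 members (3.50%) had an unadjusted p under 0.05, against 2.76% of all tested probes. Of these 7, 5 were probes of the covarying group C with negative differences, so that they were not separate findings. An analysis in 2 steps modelled on the methods, run on 11508 probes without missing values and without the filter on variability described there, also called 0 members, with 5 at an unadjusted p under 0.05. For the interaction of breed and housing, limma called 0 members and 0.0% of all tested probes, with a smallest adjusted p of 0.972. An unadjusted p under 0.05 was reached by 5 members (2.50%), against 2.59% of all tested probes, and by 3 in the analysis in 2 steps. Of the 5 in limma, 3 were ANKRD1 and probes that varied with it. A p above the threshold does not show that values did not differ. The median absolute difference between housing systems was 0.10 over the members and 0.03 over all tested probes. As for breed, this contrast is largely set by the rule and is no result about housing. ADAMTS8 had a difference of 0.84 (alternative minus conventional, SE 0.41, p 0.0507 before adjustment), and BAG3 one of 0.02 (SE 0.18).

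Most gene lists drawn up for the tissue could hardly be followed with the symbols known. BAG3 was the only 1 of 16 heat shock and metallothionein genes found, and it was a member. Of 12 genes of developmental and regenerating fibres, 3 were found, and ANKRD1 and MYH3 but not NCAM1 were members. HBA2 was the only 1 of 9 erythrocyte genes found. Neither slow fibre, fast fibre, nor matrix and fibroblast genes had a member among those found. MYC was found of 25 immediate early and stress response genes, IRF7 and MX2 of 17 interferon response genes, ACTA2 of 7 genes of smooth muscle and endothelium, and ASNS of 7 genes of polyamine and amino acid supply, none of them a member. The probe of ASNS and 1 of the 2 probes of IRF7 and MX2 were not eligible, so these could not have been members. Of the 20 adipocyte and fat synthesis, 14 fasting and atrophy, 29 immune cell, 5 peripheral nerve and 9 circadian clock genes, 0 were found, so that nothing can be said here of these lists.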

How the data were processed

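LM RNA of 40 pigs was measured on 2-colour arrays, 1 pig per array against a pool of all pigs. The intensity values deposited by the authors are Cy3 and Cy5 signals per spot from Agilent Feature Extraction, which subtracted background and, in the processed signals, corrected the dyes. The log2 ratios in the series matrix deposited by the authors were used as an alternative only. The members were chosen on the processed signals. All other values are log2(Cy3/Cy5) after normexp background correction of mean signals (offset 50) and subtraction of the array median. The 2396 outlier spots of gene probes were left out, saturated spots were kept, and control spots were not used. Tests covered probes whose Cy3 signal was well over background in 10 or more pigs of 1 breed (12222 probes, 12221 with enough values).

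Groups were compared in limma 3.58.1 (R 4.3.3) with breed, housing, their interaction and slide as fixed terms, and p-values were adjusted by Benjamini-Hochberg. This single model replaced the methods' analysis in 2 steps. Those steps were run as an alternative, without the methods' filter on variability. Covariation, slide shares, single pig shares and levels (mclust 6.1.1) are descriptions. The model has no term for litter, sire or slaughter session. The fits were tested on simulated data.

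The members and lists were chosen with earlier results of these data known. Named probes are the 10 members with the largest MAD, 3 on each side of the limit, up to 3 members of each covarying group (those with a symbol, or else those with the highest mean correlation), the 5 largest called breed differences in each direction, the 3 largest slide shares and single pig shares, and members in a gene list. Other members with a symbol or with separate levels were named after their values were seen, and a few members are not reported here. Symbols from the study's list of genes higher in B were not used, because in 36 of 36 contigs with several probes there the symbols disagreed, against 0 of 40 in the list used.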

Additional observations from a re-analysis of the deposited data

Results flagged for a closer look

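For the probes named by the rule, the highest or lowest pig of each breed and housing group of up to 10 was set against the nearest other pig by its gap relative to the range (Dixon's criterion). Of 184 groups in 46 probes, 18 (9.78%) held a pig that stood apart. Chance marks about 1 in 20 groups, but these probes were named partly on their values within groups, so the share is a description and was not tested against chance. LW conventional 8 accounted for 4 of these and LW alternative 13, B alternative 18, LW alternative 11 and B conventional 10 for 2 each. All values are log2 ratios to the pool.

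LW conventional 8 stood above the other LW conventional pigs for CJ010748.1_734 (0.97), BQ598830.1_2979 (1.41), BP435285.1_451 (1.53) and BX672504.1_751 (0.67). LW alternative 13 stood above its group for CJ010748.1_734 (1.02) and BX672504.1_751 (1.46). B conventional 10 was high for BQ598830.1_2979 (0.55) and for its near-identical probe BE032046.1_559 (0.55), which count as 1 measurement rather than separate ones.

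Low values came from B alternative 18 for AW436009.1_248 (-3.55) and for BX914328.1_520 (-1.99), the latter just outside the 200 members. LW alternative 11 was low for AW436009.1_248 (-3.89) and BM659256.1_389 (-3.70), both of covarying group E.

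For genes with a symbol, LW conventional 4 was high for ANKRD1 (1.12). HCG11 was high in B conventional 2 (0.55) and low in LW alternative 19 (-2.09), each at the level of the other breed. LSM3 was low in LW conventional 1 (-1.23), a level at which most B pigs lay. B alternative 14 was high for BQ604386.1_863 (0.80), which varied with ANKRD1, and B conventional 7 was low for CA779460.1_1088 (-1.37). The cause was not tested for any of these pigs.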

How the results depend on the processing

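Under 15 other settings (background correction, normalization, ratio, source of values, filters, slide, array weights, arrays left out, block and test), between 54 and 73 members were called between breeds, all within 1.5 times the 59 given. These were 27.0% to 36.5% of the members tested, against 16.1% to 31.1% of all tested probes. Housing (14 settings) and interaction (15) gave 0 called members in each. Within conventional housing 22 to 32 members (11.0% to 16.0%, against 6.19% to 14.6% of all tested probes) and within alternative housing 26 to 42 (13.0% to 21.0%, against 5.48% to 16.2%) were called; the all-probe shares moved by over 1.5 times, and the ratio of the 2 shares ran from 0.960 to 1.78 and from 1.18 to 2.37. The split of called members stayed within 37.0% to 46.3% higher in B, against 51.4% to 64.4% for the called probes among all tested. Of 942 values for 63 named probes, 896 kept direction and side of the threshold, 38 gained a call and 5 lost it.

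Without LW conventional 8 and LW alternative 13, chosen after seeing the data, 3 differences that were not called changed sign: CA779262.1_1496 to -0.0131, BQ598830.1_2979 to 0.0556 and BE032046.1_559 to 0.0560. The cause was not tested. Leaving out, also after seeing the data, the pig with the largest share of a member gave the 3 refitted values in the report, from -0.50 (MYH3) to 0.59 (BX672504.1_751), and between 55 and 62 called members.

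With the replicate block, 54 members were called between breeds and 0 for the interaction; MYH3 (-0.52) and CB287831.1_820 (-0.42) lost their call, and housing could not be estimated. Same-numbered pigs did not go together: 3 of 20 pairs had a correlation over 0.1, with a median of -0.02 and a range from -0.36 to 0.34.

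The choice of members depended on the signal used. Of the 200, 119 were chosen again with normexp values and 65 with log2 Cy3 alone, against 142 by standard deviation, 154 with slide means subtracted, 176 without B alternative 15 and LW alternative 18, and 178 with series matrix values. In the series matrix the arrays of B alternative 15 and LW alternative 18 correlated with their processed signals at 0.680 and 0.833, all others at 0.967 or more, so that they may have been processed differently there; the cause was not tested. Covarying groups of 5 or more held 62 members at a limit of 0.5 and 16 in 3 groups at 0.7, as the limit's construction implies, and 33 to 53 members under the 5 other settings. The analysis in 2 steps tested 194 of the 200 members. Median slide shares were 16.5% to 19.3%, and members with more than 1 level were 21 with a BIC gain of 6 or with processed signals, against 14; with a gain of 6 these were 10.5% of the members against 1.81% of the eligible probes, a smaller excess in proportion than the 7.00% against 0.626% of the report. Members were all well above background; normexp with an offset shrinks the ratios of dim probes.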
